A study of Mus musculus with 15 samples.

Results

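Connexins are the proteins of gap junctions, the channels through which neighbouring cells exchange small molecules, and in the ovarian follicle these channels couple cumulus cells to each other and to the oocyte. The genes described here were the connexins Gja1, Gja4, Gja5, Gjc1 and Gjb2, the channel protein Panx1 and the junction scaffold Tjp1. They were chosen as the probes that carry these gene symbols in the deposited table of probes present in at least 1 stage. That table held 1 probe for each of 5 of the 7 genes, namely Gja1, Gja4, Gjc1, Panx1 and Tjp1, among 15059 gene symbols in all. Gja5 and Gjb2 were followed in the scanner output of the same arrays. Of the 5 genes in the table, 4 were above background in all 3 stages and entered the test across stages.

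In cumulus cells the main connexin is connexin43 (Cx43), the product of Gja1, whereas Cx37, the product of Gja4, is the connexin that the mouse oocyte uses on its side of the junction. Channels between the cumulus cell and the oocyte sit at the ends of transzonal projections, thin processes that cross the zona pellucida. Cyclic nucleotides that pass through gap junctions hold the oocyte in prophase I, and the ovulatory surge of luteinizing hormone closes Cx43 channels through phosphorylation and lowers the amount of the protein. Pannexin 1 belongs to a separate family and forms large-pore channels that release ATP, while zonula occludens proteins are scaffolds below the membrane to which the tail of Cx43 binds.

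Cumulus cells of B6CBAF1/J mice were compared at 3 stages, with 5 arrays per stage and pooled cells of several mice on each array. At NC1 the unexpanded complexes were those of juveniles aged 3 weeks, with prophase I oocytes described as able to resume meiosis but incompetent, or poorly competent, for development. At C1 they were those of adults aged 8 weeks, with prophase I oocytes that were developmentally competent. At C2 the complexes were expanded, were flushed from oviducts of superovulated adults aged 8 weeks (PMSG, then hCG), and enclosed oocytes in metaphase II. NC1 and C1 complexes were punctured from large follicles and their oocytes removed by pipetting, whereas C2 complexes were dispersed with hyaluronidase. Stage therefore cannot be told apart from age between NC1 and C1, nor from hormone, place of collection or enzyme between C1 and C2. Levels below are log2 intensities of 1 probe minus the median of the valid probes of the same array, so that 1 unit is a doubling, and levels of different probes are not set against each other.

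Between 18366 and 24493 of 39429 gene probes were well above background per array. All 12 listed granulosa and cumulus markers passed background on 4 or more of 5 arrays at each stage. The log2 of their summed level ran from 8.23 to 8.68 at NC1, from 8.31 to 8.44 at C1 and from 5.58 to 5.98 at C2. That sum was lower at C2, but not every marker fell. Foxl2 averaged 4.21 at NC1, 4.03 at C1 and 4.06 at C2, and Gata4 0.23, 0.22 and -0.17. The other listed granulosa and cumulus markers had lower means at C2 than at both prophase I stages, by more than Gata4. Of 13 oocyte genes with a probe, 11 passed the same limit at NC1, 11 at C1 and only 4 at C2. The log2 of their summed level ran from 3.69 to 5.68 at NC1 and from 3.71 to 5.36 at C1. At C2 it ran from -0.40 to 4.12. Its medians were 4.30 at NC1, 4.45 at C1 and 3.78 at C2. Zp2, Ooep and Figla were above background on no C2 array, and Zp1, Zp3, Bmp15, Oosp1, Nlrp5 and Dppa3 on 3 of 5 each. From C1 to C2 the median of Gdf9 went from 2.72 to 2.13 and that of H1f8 from 2.77 to 2.52. That of Zp3 went from 1.40 to -3.82. Theca and stroma markers summed to between 4.10 and 6.10 at NC1, 3.92 and 4.50 at C1, and -0.05 and 0.37 at C2. For oviduct epithelium markers the range was from -0.44 to 1.34 at NC1, from 0.07 to 1.69 at C1 and from 0.20 to 3.19 at C2. Of these, Ovgp1 averaged -1.80 at NC1, -0.76 at C1 and 1.52 at C2. From C1 to C2 the means of Epcam, Krt7, Tppp3 and Cldn3 fell. Those of Foxj1 (-5.02 to -4.83) and Cldn4 (-4.13 to -4.10) changed little, and Pax8 was above background on no array. Leukocyte sums overlapped between the stages, with 1.69 to 2.63 at NC1, 2.00 to 2.38 at C1 and 2.05 to 2.66 at C2. The brightest gene in them, Itgam, averaged 1.89, 1.74 and 1.52 in that order. Means of Ptprc, Lyz2, Cd14, Csf1r and Adgre1 were higher at C2 than at NC1, and those of Itgam and Cd3e lower. Of the 7 with a probe, 4 at NC1, 4 at C1 and 6 at C2 passed background on 4 or more arrays. Each of these is RNA of a whole pool, in which fewer cells of a type and less RNA per cell cannot be told apart, and the part of these markers in the results below was not tested.

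The 3 members that were lower at C2 by the test below are shown with the 250 bases before the gene start, as the stretch in which promoter motifs are usually looked for. Sequences are those of RefSeq on GRCm38.p6, given 5′ to 3′ on the strand of the gene. That of Gja1 is chr10:56377050-56377299 on the plus strand, that of Gja4 is chr4:127314040-127314289 on the minus strand and that of Panx1 is chr9:15045479-15045728 on the minus strand. Capitals mark the motifs found.
Gja1: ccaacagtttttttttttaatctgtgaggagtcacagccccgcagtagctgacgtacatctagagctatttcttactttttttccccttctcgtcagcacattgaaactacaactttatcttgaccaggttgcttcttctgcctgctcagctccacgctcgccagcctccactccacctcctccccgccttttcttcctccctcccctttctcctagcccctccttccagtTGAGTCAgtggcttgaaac
Gja4: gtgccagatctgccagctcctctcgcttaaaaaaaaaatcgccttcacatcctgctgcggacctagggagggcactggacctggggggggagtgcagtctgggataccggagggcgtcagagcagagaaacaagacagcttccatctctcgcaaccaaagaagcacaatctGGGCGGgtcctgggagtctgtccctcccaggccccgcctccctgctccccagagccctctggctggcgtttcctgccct
Panx1: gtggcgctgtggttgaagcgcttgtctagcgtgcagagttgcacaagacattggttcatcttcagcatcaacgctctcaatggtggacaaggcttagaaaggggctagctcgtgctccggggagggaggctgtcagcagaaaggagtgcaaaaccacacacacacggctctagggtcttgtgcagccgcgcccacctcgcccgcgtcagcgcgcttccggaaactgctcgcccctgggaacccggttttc
Both strands were searched for 5 motifs. These were the cAMP response element with the letters TGACGTCA, the site of the factor AP-1 with TGANTCA, the site of the factor Sp1 with GGGCGG, the site of NR5A receptors with TCAAGGTCA and the TATA box with the letters TATAAA. Gja1 held 1 AP-1 match that began 19 bases before the start, a motif present in 6.75% of 32851 promoters of this length. Gja4 held 1 Sp1 match that began 79 bases before the start, a motif present in 32.7% of promoters. Panx1 held none of the 5. The cAMP response element, held by 1.55% of promoters, the NR5A motif, held by 0.387%, and the TATA box, held by 12.4%, were in none of the 3 windows, and no match overlapped another. Tjp1 and Gjb2 held 2 Sp1 matches each and Gja5 held 1. The table matched 6 of the 7 members, and Gjc1 was without an entry. The letters are a description and say nothing of binding.

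The first question was which connexins reach detection at all. Detection in a stage meant a signal well above background on 4 or more of the 5 arrays, which 52.9% of all gene probes reached in at least 1 stage. All 17 listed connexin genes had a probe, and 4 of them, Gja1, Gja4, Gjb1 and Gjc1, were detected in at least 1 stage. A further 3 were above background on some arrays without reaching that limit. These were Gja3 with 4 of 15 arrays, and Gja5 and Gjc3 with 1 array each. The remaining 10, Gjb2 among them, were above background on no array.

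Of the listed members, Gja1, Gja4, Panx1 and Tjp1 were above background on all 15 arrays. Gjc1, which codes for Cx45, was above background on all 5 NC1 and all 5 C1 arrays and on no C2 array, a pattern shared by 0.675% of gene probes. Gja5, which codes for Cx40 of arteries and heart, had 2 probes, and a single call came from its probe A_55_P2178753 on C2 replicate 4. Gjb2, which codes for Cx26, was above background on none of the 15 arrays, with intensities that measured between -7.25 and -5.55 on the log2 scale. By the limit of 4 or more arrays well above background, these 2 genes have no level that could be compared between stages.

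Among pannexins, Panx1 was detected at every stage, while Panx2 with 2 probes and Panx3 with 1 were above background on no array. Of the zonula occludens genes, Tjp1 was detected on all 15 arrays, and Tjp3 was above background on 3 NC1, 2 C1 and 5 C2 arrays. A more lenient rule, a signal above the mean plus 2 SD of the negative control spots, counted 14 rather than 7 of the 24 probes. It added 7 connexins (Gja3, Gja5, Gja6, Gjc3, Gjd2, Gjd3 and Gjd4), left Gjb2 out and placed Gjc1 above the controls on all 5 C2 arrays, so that the loss of Gjc1 at C2 is relative to the stricter limit.

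**Figure D1:**
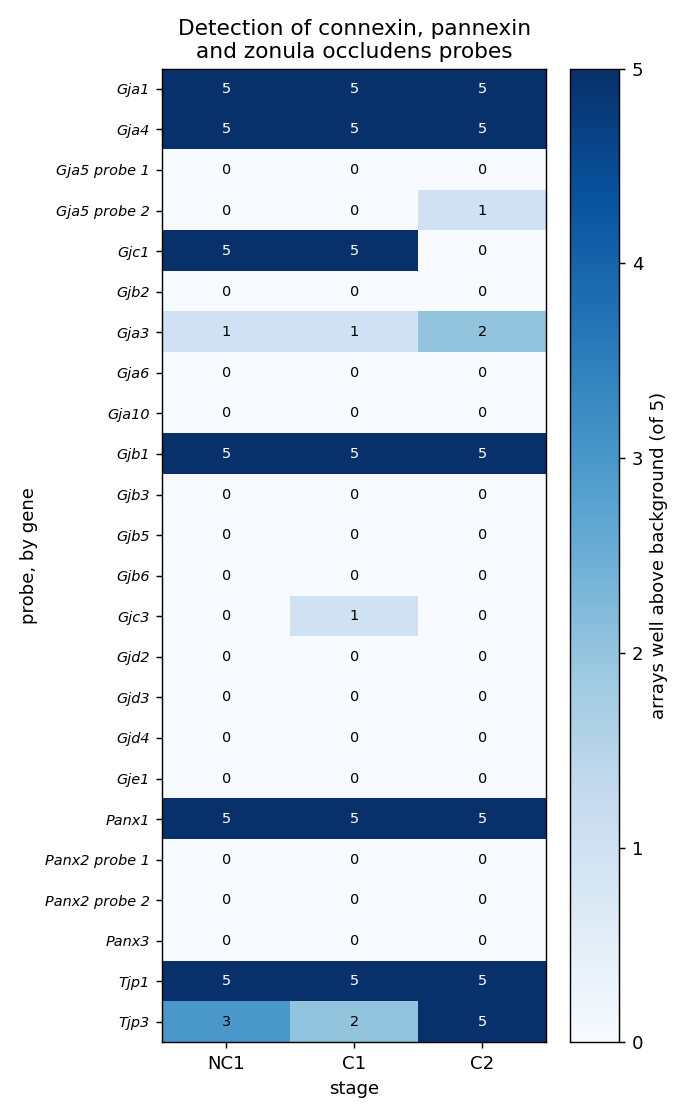
Number of arrays, of 5 per stage, on which each connexin, pannexin and zonula occludens probe was well above background (rows are probes, columns are stages, darker is more arrays). Gja1, Gja4, Gjb1, Panx1 and Tjp1 stand at 5 in every stage, and Gjc1 goes from 5 at NC1 and C1 to 0 at C2.

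Gja1, the Cx43 gene and the main connexin of cumulus cells, was less abundant at C2 than at either prophase I stage. The probe A_52_P174915 measured 4.15, 3.59, 4.66, 5.05 and 4.30 in NC1 replicates 1 to 5. In the C1 replicates it measured 3.61, 4.18, 3.91, 4.52 and 4.26, and in the C2 replicates 2.54, 2.03, 1.82, 1.59 and 2.07. Every C2 array lay below every prophase I array, whereas NC1 and C1 overlapped over most of their range. NC1 arrays averaged 4.35 ± 0.55 (SD, n = 5), C1 arrays 4.10 ± 0.35 and C2 arrays 2.01 ± 0.35.

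From C1 to C2 the level of Gja1 fell by 2.09 on the log2 scale (SE 0.24, limma adjusted p = 1.57e-06), which is 4.25-fold lower. Against NC1 it was 5.06-fold lower at C2 (log2 change -2.34, limma adjusted p = 3.34e-07). The change from NC1 to C1 was -0.25, with a 95% interval from -0.77 to 0.26 and a limma adjusted p of 0.683. Within the 4 slides, each of which carried all 3 stages, the C2 minus C1 difference ran from -2.71 to -1.38, and with the slide as a block it was -2.13 (limma adjusted p = 5.29e-06). The C1 minus NC1 difference ran from -0.76 to 0.67 within slides, lower in 3 of 4.

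Gja4, the Cx37 gene, showed a larger difference in the same comparison. The probe A_52_P117352 measured -0.04, -0.03, -0.77, -1.01 and -0.68 in NC1 replicates 1 to 5. In C1 it measured 0.39, -0.69, -0.30, -0.68 and -0.90, and in C2 -2.82, -3.18, -3.38, -3.44 and -3.82. No C2 array reached the range of the prophase I arrays, and NC1 and C1 overlapped almost completely. The level of Gja4 fell by 2.89 on the log2 scale from C1 to C2 (SE 0.25, limma adjusted p = 5.76e-08), which is 7.44-fold lower, and it was 7.09-fold lower at C2 than at NC1.

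Between NC1 and C1 the Gja4 difference was 0.07, with a 95% interval from -0.47 to 0.60 and a limma adjusted p of 0.938. Its sign turned to -0.14 without C1 replicate 1 and to -0.06 without NC1 replicate 4. The C2 minus C1 difference ran from -3.67 to -2.48 within the 4 slides and was -2.84 with the slide as a block (limma adjusted p = 1.48e-06). For C1 minus NC1 the slides ran from -0.87 to 0.55.

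**Figure D2:**
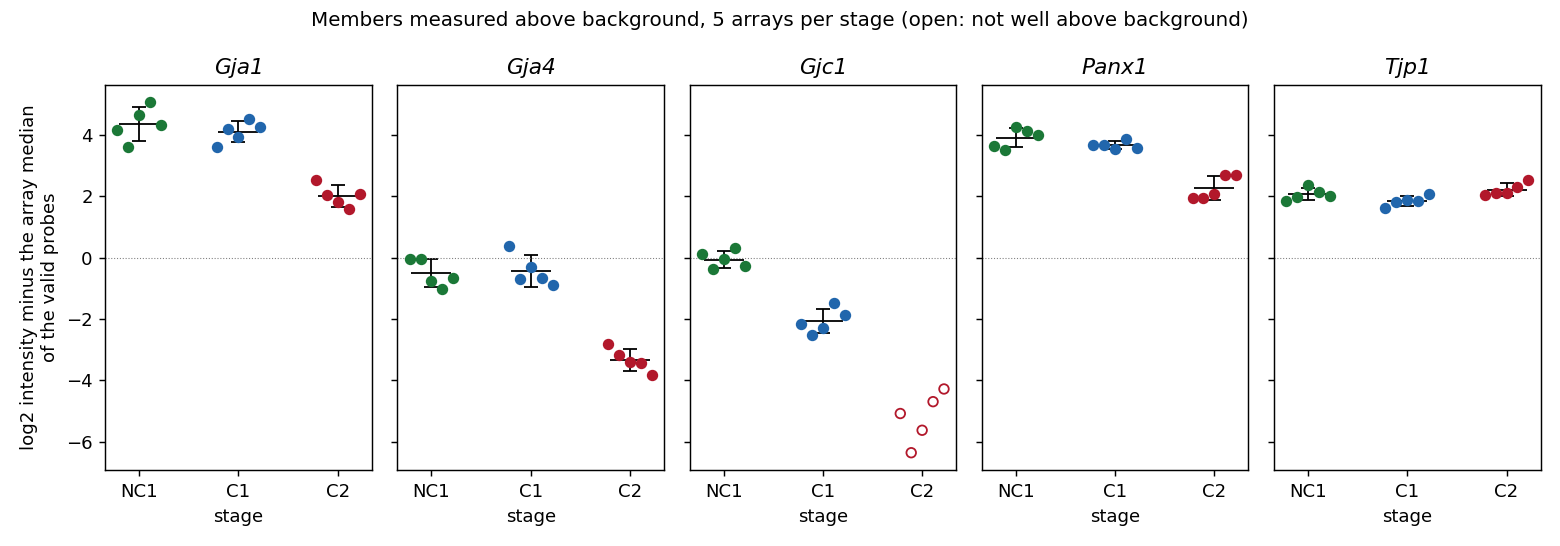
Log2 level of the 5 members in the table on each of 15 arrays, against the array's median over valid probes (dots in replicate order within a stage, bars are mean and SD, n = 5, open circles are not well above background). Gja1, Gja4 and Panx1 lie lower on every C2 array than on any prophase I array, Gjc1 is already lower at C1, and the 3 stages of Tjp1 overlap.

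Because Gja4 is known from the oocyte, its level was set against that of oocyte transcripts in the same pools. An oocyte level was taken as the mean log2 level of the 11 oocyte genes detected at both prophase I stages. It was 1.105, 0.88, -0.43, -0.96 and -0.31 in NC1 replicates 1 to 5. In C1 it was 0.73, -0.10, 0.31, -0.62 and -0.86, and in C2 -2.05, -2.23, -2.12, -5.04 and -4.91. NC1 replicates 1 and 2 and C1 replicates 1 and 3 were thus the prophase I pools richest in oocyte transcripts, and the same 4 had the highest Gja4. At C2, replicates 4 and 5 had the least of these transcripts and the lowest Gja4.

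The relation was tested over the 10 prophase I arrays on deviations from the stage mean, for the 5 members in the table, with 100000 permutations within stages and the adjustment over 5. For Gja4, Pearson's r was 0.94 (permutation p = 0.00029, adjusted 0.00145) and Spearman's rho 0.90 (permutation p = 0.00232, adjusted 0.00687). Without NC1 replicate 1 and C1 replicate 1, the arrays farthest from the median, r was 0.95, and within NC1 and C1 taken alone it was 0.995 and 0.92. Gja4 thus went up and down with the oocyte genes from pool to pool.

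Gja1 ran the opposite way. Its r was -0.87 (permutation p = 0.00363, adjusted 0.00907) and its rho -0.90 (permutation p = 0.00275, adjusted 0.00687), with an r of -0.91 without the 2 farthest arrays. With slide taken out as well, r was 0.91 for Gja4 and -0.91 for Gja1. A slide held only 2 or 3 of these arrays, too few for a value of its own. Tjp1 had an r of -0.74 (permutation p = 0.026, adjusted 0.0433) and a rho of -0.81 (permutation p = 0.0141, adjusted 0.0235), and without the 2 farthest arrays its r was -0.54. Panx1 had an r of -0.73 (permutation p = 0.0534, adjusted 0.0667) and a rho of -0.68 (permutation p = 0.0606, adjusted 0.0757). Neither reached 0.05 for Gjc1, with an r of -0.46 (permutation p = 0.182) and a rho of -0.53 (permutation p = 0.142). All of these members except Gja4 thus had a negative r. The share of all valid probes with an r of such size is not given, so these values cannot be called particular to the members.

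**Figure D3:**
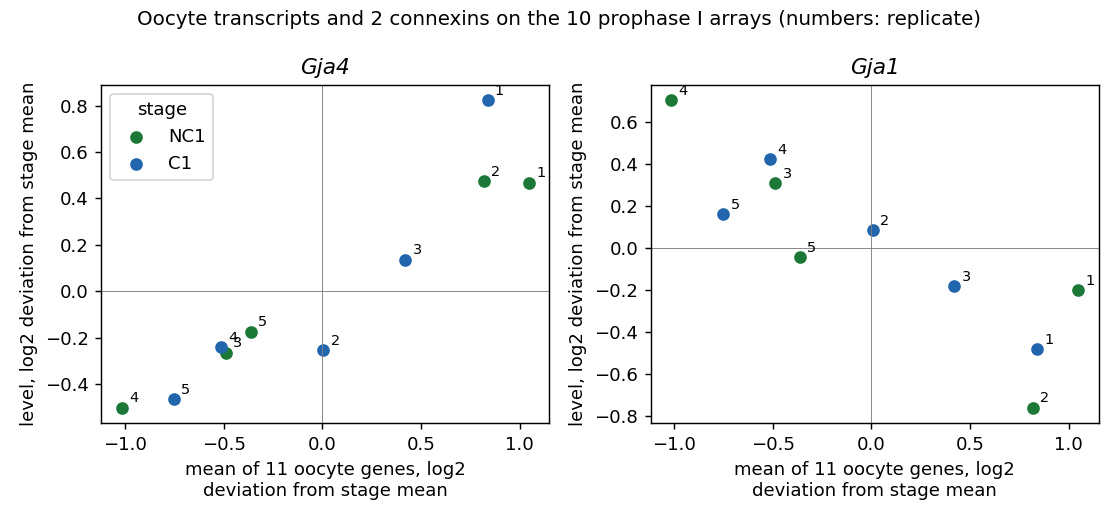
Deviation of the Gja4 level (left) and the Gja1 level (right) from the mean of the stage against the deviation of the mean of 11 oocyte genes, all on the log2 scale, on the 10 prophase I arrays (colours are stages, numbers are replicates). Gja4 rises with the oocyte genes (r = 0.94) and Gja1 declines (r = -0.87).

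The C2 arrays differed in oocyte transcripts, and values were also taken with C2 replicates 4 and 5 alone, a choice made after the values were seen. These arrays lay farther from C1 in the oocyte level than the other C2 arrays. The values are therefore no check on oocyte RNA for any member. Against C1, the change of Gja1 was then -2.27 (limma adjusted p = 8.12e-05) and that of Panx1 -0.97 (limma adjusted p = 0.000816). That of Gja4 was -3.20, and these were the C2 arrays with the least oocyte RNA and the lowest Gja4. The part of oocyte RNA in the changes at C2 was not tested.

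Gjc1, the Cx45 gene, was the member that differed between the 2 prophase I stages. Its probe A_55_P2107362 measured 0.10, -0.38, -0.06, 0.31 and -0.29 in NC1 replicates 1 to 5 and -2.15, -2.53, -2.29, -1.48 and -1.88 in C1. All C1 arrays lay below all NC1 arrays. The mean went from -0.06 ± 0.28 (SD, n = 5) to -2.06 ± 0.40, which is 4.00-fold lower in adults. Since the probe was not above background at C2, it was tested in the fit of the 20844 probes detected in at least 1 stage, in which 0.84% of probes were called lower at C1.

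In that fit the C1 minus NC1 change of Gjc1 was -2.001 (SE 0.32, limma adjusted p = 0.000987). The exact two-sided permutation test of 5 arrays against 5 gave p = 0.00794, the smallest it can give. Within the 4 slides the difference ran from -2.44 to -1.42, and with the slide as a block it was -2.03 (limma adjusted p = 0.00508). Leaving out each NC1 or C1 array in turn kept it between -2.15 and -1.88.

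At C2 the Gjc1 probe measured -5.08, -6.35, -5.62, -4.69 and -4.28, not well above background on any array. Only a bound can therefore be given, against the lowest signal of a probe well above background on the same arrays. Gjc1 was at least 23.9-fold higher at NC1 than at C2 and at C1 at least 5.98-fold higher. No p is given for these, because the probe was among those detected in at least 1 stage only through NC1 and C1. With the normexp background correction these bounds were 9.74-fold and 3.08-fold.

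Cx45 is known from vessels and smooth muscle, so the markers of those cells are given beside it. Endothelial markers summed to between 2.28 and 2.69 at NC1, 2.57 and 3.05 at C1, and 0.87 and 1.41 at C2, so that their C1 range lay above most of that of NC1. Of the 10 listed endothelial genes, 6 at NC1, 7 at C1 and 4 at C2 were above background on 4 or more arrays. Tek was above background on no array of any stage, Tie1 on none at NC1 and C2, and Emcn on none at C2. The brightest gene in the sum, Egfl7, averaged 2.11 at NC1, 2.42 at C1 and -0.20 at C2. Not every endothelial gene fell at C2. Cdh5 averaged -2.12, -1.95 and -0.45 in that order, and Kdr -1.18, -1.24 and -1.16. From C1 to C2 the mean of Pecam1 went from -3.75 to -4.03, and the means of the remaining endothelial genes fell too. The smooth muscle genes Acta2 and Tagln, members of the theca and stroma list picked out after their values were seen, were above background on every array and moved in the same direction as Gjc1. For Acta2 the NC1 arrays averaged 2.34 ± 0.85 (SD, n = 5), the C1 arrays 1.47 ± 0.43 and the C2 arrays -3.32 ± 0.42. For Tagln the averages in the same order were 1.95 ± 0.44, 1.17 ± 0.32 and -1.15 ± 0.25. From NC1 to C1 that list did not all move in this direction. The mean went from 1.11 to 1.21 for Dcn, from -3.24 to -2.97 for Pdgfra and from -1.17 to -1.06 for Pdgfrb. Means of the other listed theca and stroma genes were lower at C1. Red blood cell markers had lower sums at C1 than at NC1 as well, with 6.14 to 8.69 at NC1, 3.35 to 5.40 at C1 and 3.27 to 4.61 at C2. Their part, and that of the theca and stroma markers given above, was not tested.

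Panx1, the pannexin 1 gene, was also lower at C2. Its probe A_51_P135340 measured 3.64, 3.51, 4.26, 4.11 and 3.99 in NC1 replicates 1 to 5. In C1 it measured 3.66, 3.67, 3.53, 3.86 and 3.58, and in C2 1.94, 1.93, 2.07, 2.70 and 2.69. The C1 arrays lay close together and inside the NC1 range, and the C2 arrays fell into a lower 3 and a higher 2, all below prophase I. From C1 to C2 Panx1 fell by 1.39 on the log2 scale (SE 0.18, limma adjusted p = 4.51e-06), which is 2.63-fold lower, and it was 3.10-fold lower at C2 than at NC1.

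Panx1 changed by -0.24 from NC1 to C1, with a 95% interval from -0.62 to 0.14 (limma adjusted p = 0.574). Its C2 minus C1 difference ran from -1.59 to -0.98 within slides and was -1.42 with the slide as a block (limma adjusted p = 1.57e-05). Of the 4 slides, 2 had the lower value at C1 than at NC1.

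Tjp1, which codes for the scaffold zonula occludens 1, kept overlapping levels at all 3 stages. The probe A_55_P2034998 measured 1.86, 1.97, 2.38, 2.14 and 2.00 in NC1 replicates 1 to 5. In C1 it measured 1.63, 1.81, 1.89, 1.84 and 2.07, and in C2 2.03, 2.09, 2.11, 2.30 and 2.53. The C2 arrays lay on the upper side but overlapped both other stages. The C2 minus C1 change was 0.36, with a 95% interval from 0.10 to 0.63, and its limma adjusted p of 0.0193 missed the threshold of 0.01 but would pass one of 0.05.

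With the median over all probes as the scale, the change of Tjp1 was 0.67 and passed with an adjusted p of 0.00989, and in the authors' table it was 0.67 with an adjusted p of 0.00998. That scale also moved the median of all valid probes to 0.33 between C1 and C2, against 0.02 here. Within slides the C2 minus C1 difference of Tjp1 ran from 0.04 to 0.81, and with the slide as a block it was 0.34 (limma adjusted p = 0.04996). The C1 minus NC1 change was -0.22, with a 95% interval from -0.49 to 0.04 (limma adjusted p = 0.411), and the C2 minus NC1 change 0.14, from -0.12 to 0.41 (limma adjusted p = 0.328).

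Over the 4 members tested on 17323 valid probes, 3 (Gja1, Gja4 and Panx1) were called lower at C2 than at C1 by limma at an adjusted p under 0.01. Over all valid probes 22.2% were called lower in that comparison, and 47.6% in either direction. The same 3 were called lower at C2 than at NC1, where 24.9% of all probes were lower and 51.5% differed. In all 3, every C2 array was below every C1 array, which held for 19.9% of valid probes. Between NC1 and C1, limma called 0 of the 4, against 2.52% of all probes called at the same threshold. An unadjusted p under 0.05 was reached by 0 of the 4, and the share of all probes at that limit is not given. The same fit without moderated variances called 0 as well. The F-test over the 3 stages gave adjusted p of 4.21e-07 for Gja1, 3.21e-08 for Gja4, 9.39e-07 for Panx1 and 0.0503 for Tjp1. The comparisons of C2 with C1 and with NC1 share the C2 arrays.

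**Figure D4:**
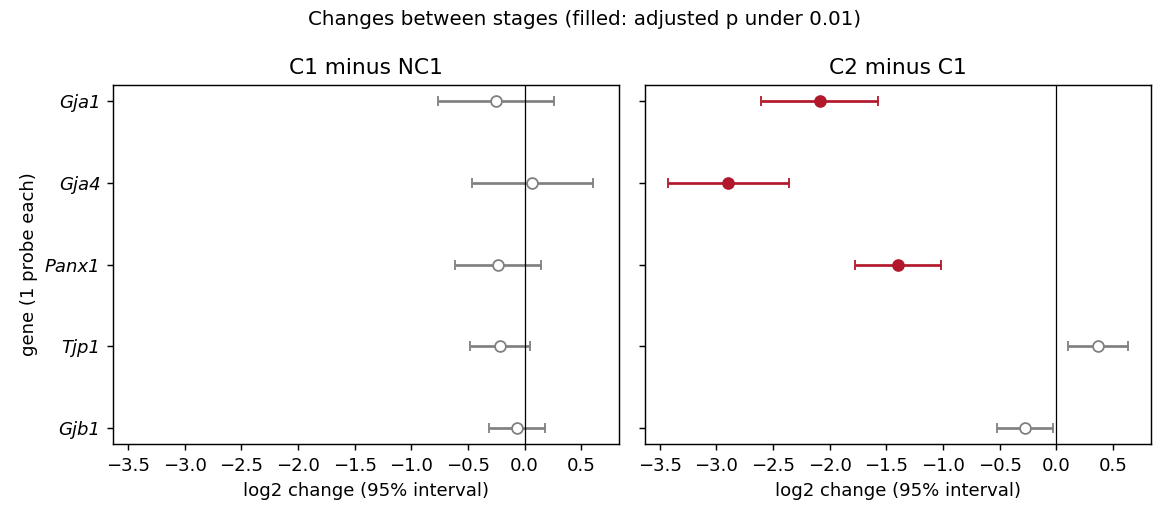
Log2 change of 5 tested connexin, pannexin and zonula occludens genes from NC1 to C1 (left) and from C1 to C2 (right), 1 probe each, with the 95% interval of the limma fit (filled where the adjusted p is under 0.01). No gene is called on the left, and on the right Gja1, Gja4 and Panx1 are lower at C2.

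Outside the listed members, Gjb1, the Cx32 gene of liver and myelin, was dim but above background on every array. It ranged from -2.69 to -2.17 at NC1, from -2.68 to -2.23 at C1 and from -2.91 to -2.49 at C2, with overlap between all stages. Its C2 minus C1 change was -0.28 (limma adjusted p = 0.0522), with a 95% interval from -0.53 to -0.03, and scaling by the median of every probe turned it to 0.03. Among the 3 connexins tested, which are Gja1, Gja4 and Gjb1, 2 were thus called lower and 0 higher at C2 than at C1. Over all valid probes 22.2% were called lower in that comparison. The median change of the 3, which is that of Gja1, was -2.09 against 0.02 over all valid probes. From NC1 to C1 limma called 0 of the 3, where 2.52% of all probes were called, and 0 of the 3 had an unadjusted p under 0.05.

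Besides Tjp1, the zonula occludens scaffold Tjp3 was followed. Tjp3, detected at C2 alone, measured between -4.80 and -3.71 at C1 and between -2.62 and -1.95 at C2, without overlap. Since 3 of the 5 C1 arrays had no Tjp3 signal well above background and the probe reached the detection limit only through C2, no fold and no test are given.

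Genes that act on connexins were taken from lists of kinases and phosphatases, of trafficking, binding and turnover, of adherens junctions and of transzonal projections. Of 16 kinases and phosphatases known to act on connexins, 12 were tested, and at C2 against C1 5 were called higher, 1 lower and 6 neither, where 47.6% of all probes were called. The median change was 0.32, beside 0.02 over all valid probes. The 3 largest changes were those of Prkca, Ppp2ca and Mapk3. Prkca, which codes for protein kinase C alpha, rose by 1.59 (SE 0.25, limma adjusted p = 3.87e-05), and its other valid probe changed by 1.94. Ppp2ca, a catalytic subunit of protein phosphatase 2A, rose by 0.80 (SE 0.10, limma adjusted p = 4.44e-06). Mapk3, which codes for the kinase ERK1, rose by 0.79 (SE 0.13, limma adjusted p = 6.84e-05). With the spike-in controls as the scale, only 1 of the 12 was called, and Ppp2ca (adjusted p = 0.0714) and Mapk3 (adjusted p = 0.0895) were not. The count of 6 called genes fell to 3 without C1 replicate 3, without C2 replicate 2 or without C2 replicate 3.

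Of 24 genes of connexin trafficking, binding and turnover, 20 were tested, and 10 were called higher, 4 lower and 6 neither at C2 against C1, where 47.6% of all probes were called. With the spike-in controls as the scale, 9 of the 20 were called. Cav2, which codes for caveolin 2, had the largest change of the list, from -3.39 ± 0.23 (SD, n = 5) at C1 to -0.62 ± 0.11 at C2, a rise of 2.77 (limma adjusted p = 5.65e-11). Ezr, which codes for the actin linker ezrin, rose by 1.75 (limma adjusted p = 2.44e-06) and Flot1, which codes for the membrane raft protein flotillin 1, by 1.52 (limma adjusted p = 1.86e-06). The median change of the list was 0.24.

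Of 12 adherens junction genes, 10 were tested, and 5 were called higher, 2 lower and 3 neither at C2 against C1, where 47.6% of all probes were called, with a median change of 0.34. With the spike-in controls as the scale, 2 of the 10 were called. Nectin1, a cell adhesion molecule, fell by 3.06 from 2.59 ± 0.28 (SD, n = 5) to -0.47 ± 0.18 (limma adjusted p = 6.01e-11). Vcl, which codes for vinculin, rose by 1.89 (limma adjusted p = 2.05e-07) and Nectin2, of the same family as Nectin1, by 1.21 (limma adjusted p = 3.13e-05). The other valid probe of Nectin2 changed by 0.14, so its probes disagree, and its call was lost with the spike-in controls (adjusted p = 0.0103).

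Nectin2 was also the single gene of these lists called between NC1 and C1, higher at C1 by 0.89 (SE 0.19, limma adjusted p = 0.00812). That call was lost with 18 of 27 alternatives, among them the slide as a block (adjusted p = 0.0213) and the replicate number as a block (adjusted p = 0.0141). In the other lists limma called 0 genes between NC1 and C1, where 2.52% of all probes were called. Unadjusted p was under 0.05 for 2 of 12 kinases and phosphatases and 1 of 20 genes of trafficking, binding and turnover. It was so for 3 of 10 adherens junction genes, Nectin2 among them, and 0 of 3 genes of transzonal projections. The share of all valid probes at that limit is not given, so these counts cannot be set against it.

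Of the 3 listed genes of transzonal projections, 2 were called lower at C2 than at C1, where 22.2% of all probes were called lower. Myo10, which codes for a filopodial myosin, fell by 1.60 (SE 0.20, limma adjusted p = 3.08e-06). Fscn1, which codes for the actin bundler fascin, fell by 1.01 (SE 0.22, limma adjusted p = 0.00091), and with the median over all probes as the scale it was not called (adjusted p = 0.014). Daam1, a formin, changed by 0.07 (limma adjusted p = 0.745).

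**Figure D5:**
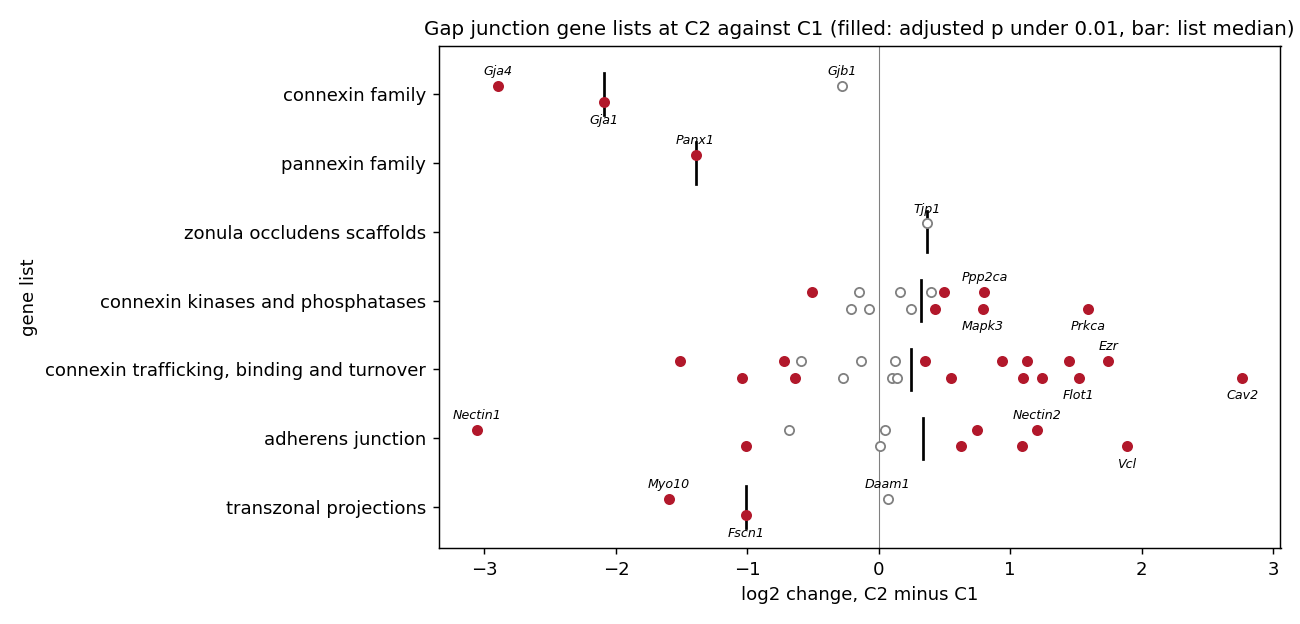
Log2 change from C1 to C2 of each tested gene in the 7 gap junction lists (dots, filled where the limma adjusted p is under 0.01, bar is the median of the list). Gja1, Gja4 and Panx1 are called lower at C2 and Gjb1, at -0.28, is not called, whereas the larger lists hold changes in both directions.

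The genes whose levels were most like those of each member over the 15 arrays were found among 12664 genes. The measure is Pearson's r over arrays that differ mainly by stage, and is a description. For Gja1 they were Igf2r (r = 0.98), Dgcr2 (r = 0.98) and Sdha (r = 0.98), for Panx1 they were Maco1 (r = 0.99), Pgap4 (r = 0.98) and Ednra (r = 0.98), and for Tjp1 they were C730026J16 (r = 0.93), Kbtbd2 (r = 0.91) and Zhx3 (r = 0.91). For Gja4 they were Npm2 (r = 0.98), Fgf8 (r = 0.98) and Khdc3 (r = 0.98), of which Npm2 is 1 of the listed oocyte genes.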

How the data were processed

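Total RNA of pooled cumulus cells was labelled with Cy3 and hybridised to Agilent 4x44K oligonucleotide arrays, 15 arrays on 4 slides, each slide holding all 3 stages. The deposited scanner output gives a background-subtracted intensity for each spot, unscaled between arrays, from Feature Extraction (10.7.1.1 in the file headers, 10.5.1.1 in the labels). A deposited table holds log2 values scaled by each array's median, for probes present in at least 1 stage, and served to find the members and as an alternative. Both are array intensities, so depth has no counterpart and the number of arrays limits the precision.

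Control spots and spots marked as non-uniform or outlying were removed, the remaining spots of each probe were averaged, log2 was taken, and the median of the 17323 valid probes was subtracted per array. A valid probe had a signal well above background on 4 or more of 5 arrays of each stage, as in the methods of the study. A single limma model (limma 3.58.1, R 4.3.3) of the 15 arrays compared the stages, with moderated variances and Benjamini-Hochberg adjustment over all valid probes at 0.01. All tests were two-sided. The valid probes had 20 missing values, none on a member. No gene spot was saturated. Arrays are separate pools of mice, and p-values measure the spread between pools.

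Probes were named through the accession in the files and the given RefSeq table (26055 probes), or the authors' table alone (2770), and 10604 stayed unnamed. Where a list gene had several valid probes, that with the highest mean was used. Named genes are all members, all genes of the connexin, pannexin and zonula occludens families, the 3 largest changes from C1 to C2 in each other list, every list gene called between NC1 and C1, and the 3 genes most like each tested member. A few genes of these lists are not reported here and are left out of the counts by list and of the genes compared for likeness, but not of the fit. The members and lists were chosen with earlier results of these data known.

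Alternatives were the normexp background correction (offset 50), other scalings (75th percentile, median over all probes, quantile, spike-in controls), the authors' table, other filters, only the compared stages, the same fit without moderation, slide or replicate number as a block, a threshold of 0.05 and leaving out each array. The mean spot signal and its background, which normexp would use, were given only as the median signal with the median background, so these were used. The fit was tested on simulated data.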

Additional observations from a re-analysis of the deposited data

Results flagged for a closer look

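In 53 groups of 5 arrays (18 genes named in the report, at each stage in which they were detected), 3 held an array far from the other 4 by Dixon's ratio at the 95% level, where chance alone would flag about 1 group in 20. None was a listed member. Vcl measured 0.52 in C1 replicate 4, with the nearest other C1 array at -0.39. Ppp2ca measured 2.70 in C2 replicate 4, with the nearest other C2 array at 2.40. Mapk3 measured 0.58 in NC1 replicate 3, where the nearest other NC1 array measured 0.96.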

How the results depend on the processing

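The changes of Gja1, Gja4 and Panx1 at C2 kept their direction and an adjusted p under 0.01 with all 28 alternatives, from -2.27 to -1.78 for Gja1, from -3.20 to -2.23 for Gja4 and from -1.53 to -0.97 for Panx1 against C1. The ends -2.27, -3.20 and -0.97 came from C2 replicates 4 and 5 alone, which is no check on oocyte RNA for any of the 3. Leaving out each of the 15 arrays in turn left 3 members called at C2 against C1 and against NC1, and 0 between NC1 and C1. The count between NC1 and C1 rose from 0 to 1 with probes present in any stage and with no filter, because Gjc1 then entered the fit. Detection counted 14 probes rather than 7 by the negative control rule. The Gjc1 bounds of 4.58 (NC1 over C2) and 2.58 (C1 over C2) on the log2 scale moved to 3.28 and 1.62 with the normexp correction. For Gja4 between NC1 and C1, a change of 0.07 turned to -0.0371 when scaled by the median of every probe and to -0.0372 in the authors' table, to -0.06 without NC1 replicate 4 and to -0.14 without C1 replicate 1, with a highest value of 0.19 among the leave-outs and an adjusted p of at least 0.783 in all 28 alternatives. Gjb1 at C2 against C1 turned from -0.28 to 0.0318 and 0.0313 in the same 2 settings, and Daam1 to -0.0369 with spike-in scaling. The same 2 settings also passed Tjp1 at C2 against C1 (0.67), and a threshold of 0.05 passed it as well (adjusted p = 0.0193), for 4 of 4 members. Of the other 14 named changes, 352 of 378 values kept direction and side of the threshold. Nectin2 between NC1 and C1 lost its call in 18 of 27 alternatives, and kept it in 5 of 15 leave-outs (0.78 to 1.01). With the spike-in controls, the calls at C2 against C1 were 1 of 12 kinases and phosphatases, 9 of 20 genes of trafficking, and 2 of 10 adherens junction genes. The cause of these shifts was not tested. Dim probes, such as Gjc1 at C2, Gjb1 and Tjp3, are limited by the signal over background.

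Same-numbered arrays of NC1 and C1 had correlations of their deviations between 0.06 and 0.35, 3 of 5 over 0.1, and those with C2 ran from -0.24 to 0.21, 1 of 10 over 0.1. As not every pair passed 0.1, the numbers were not taken to pair the pools. With the replicate number as a block, C2 minus C1 was -2.09 for Gja1, -2.89 for Gja4 and -1.39 for Panx1, and 3 members were called, as without it. Between NC1 and C1 it called 0 of the 4, and Gjc1 changed by -2.001 (adjusted p = 0.000316). An array was most like its own number in 7 of 30 comparisons.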
